A study of Mus musculus with 21 samples.

Results

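Syntenin (Sdcbp), the ALIX gene Pdcd6ip, the 4 syndecans (Sdc1, Sdc2, Sdc3, Sdc4) and the tetraspanins Cd63, Cd9 and Cd81 were followed as 9 of the 23420 genes counted in sorted mouse inflammatory monocytes (IMs). The genes were chosen by name, and all 9 were found. The higher levels of Sdcbp and Sdc4 in tumor-infiltrating IMs (TIMs) than in bone marrow (BM) IMs were known when the set was put together, so the 3 comparisons of TIMs with BM IMs, and the difference between tumor models that is built from 2 of them, are given below for these 9 genes as descriptions, with no p-value. The comparison of LN2E1 lymph nodes with primary tumors and that of the BM of the 2 strains are other contrasts, although on libraries that the former share, and are given with their tests.

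RNA came from 21 libraries in 5 groups. BM IMs were taken from naive FVB mice (n = 3) and naive DBA2 mice (n = 3), both labelled healthy. LN2E1 (KAL-LN2-E1 in the labels) is a squamous lung cancer line selected by passage in vivo, and 500000 cells were placed into the lung of FVB mice; TIMs were sorted from the primary tumors (LN2E1 PT, n = 5) and from lymph node metastases (LN2E1 LN, n = 5). LN4K1, a line derived from KLN-205 cells, was given by vein to DBA2 mice at 300000 cells, and TIMs were sorted from the lung tumors (LN4K1 lung, n = 5). No modified allele or drug was given in the labels for any group, and each tumor model rested on 1 cell line, so cell line, strain, route and tissue could not be told apart between the models. Cells were sorted as CD45+ SiglecF- CD11b+ Ly6G- Ly6C high. The study's methods speak of technical replicates and the labels do not tie a library to a mouse, so the p-values below may measure technical spread only.

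Syndecans are membrane proteins that carry heparan sulfate chains and bind growth factors, chemokines and matrix. Their short cytoplasmic tails bind the PDZ domains of syntenin, which in turn binds ALIX, a partner of the ESCRT machinery that buds small vesicles into endosomes; the vesicles are then released as exosomes. CD63, CD9 and CD81 are membrane-spanning tetraspanins that are widely used to identify exosomes, with CD63 also a protein of late endosomes and lysosomes and CD9 and CD81 mostly at the cell surface. In the monocyte and macrophage lineage these proteins are best known for roles in adhesion, migration and fusion. RNA levels do not tell how many vesicles a cell releases.

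Libraries held between 80772922 and 101043568 counts, so that the floor of 3 counts lay between 0.0297 and 0.0371 CPM before TMM scaling. All other CPM are the count relative to the size of its library after TMM scaling. The markers of the sort were present in every group, although at different levels. Ly6c2 lay between 2434 and 3600 CPM in BM and between 974 and 1688 CPM in TIMs. Ptprc (CD45) lay between 616 and 741 CPM in BM and between 1204 and 3012 CPM in TIMs. Itgam (CD11b) lay between 257.9 and 1604 CPM over all groups. LN2E1 LN replicate 1 and LN4K1 lung replicate 3 stood apart, with a median correlation to their own group of 0.853 and 0.903 against at least 0.924 and 0.965 for the other libraries of those groups. Markers of other cells moved with the groups. The 6 fibroblast markers summed to between 365 and 1112 CPM in LN2E1 PT, between 0.836 and 87.1 CPM in LN2E1 LN, between 1.31 and 43.0 CPM in LN4K1 lung and to at most 0.359 CPM in BM. All 6 averaged over 1 CPM in LN2E1 PT, against 4 in LN2E1 LN, 3 in LN4K1 lung and 0 in BM. The 8 epithelial markers summed to between 212 and 784 CPM in LN2E1 PT, between 10.0 and 141 CPM in LN2E1 LN, between 7.73 and 153 CPM in LN4K1 lung and to at most 3.97 CPM in BM. Endothelial markers summed to between 60.1 and 128 CPM in the LN2E1 groups and to at most 20.5 CPM elsewhere. B and plasma cell markers reached 348 CPM in LN2E1 PT, in replicate 5, and 251 CPM in LN2E1 LN against at most 47.4 CPM elsewhere. Their medians were 26.8 CPM in LN2E1 PT, 86.2 CPM in LN2E1 LN and 35.5 CPM in FVB BM. Neutrophil precursor markers lay between 2525 and 3543 CPM in BM and between 14.99 and 321 CPM in TIMs. Eosinophil and basophil markers lay between 439 and 1215 CPM in BM and between 2.54 and 137 CPM in TIMs. Macrophage markers lay between 805 and 2076 CPM in BM and between 2759 and 6214 CPM in TIMs. Mature neutrophil markers (650 to 2483 CPM), dendritic cell markers (49.2 to 343 CPM) and T and NK cell markers (2.41 to 25.3 CPM) were found in both. Platelet markers lay between 26.9 and 149 CPM in FVB BM, between 0.655 and 45.2 CPM in DBA2 BM and between 2.61 and 17.5 CPM in TIMs. In such bulk libraries, fewer cells of a type and less RNA per cell cannot be told apart.

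Per kilobase of exon, Sdcbp had the highest level of the 9 genes in each of the 5 groups, with means of 86.3 CPM per kb in FVB BM, 91.2 in DBA2 BM, 182 in LN2E1 PT, 226 in LN2E1 LN and 187 in LN4K1 lung. Pdcd6ip followed in BM, at 32.2 CPM per kb in FVB and 38.3 in DBA2. Sdc4 had the lowest level of the 9 genes in BM, at 0.119 CPM per kb in FVB and 0.0215 in DBA2, and the fourth highest in each TIM group, at 36.0 in LN2E1 PT, 32.2 in LN2E1 LN and 11.9 in LN4K1 lung. In the LN2E1 groups Cd9, at 63.0 CPM per kb in PT and 75.6 in LN, came second to Sdcbp.

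**Figure D1:**
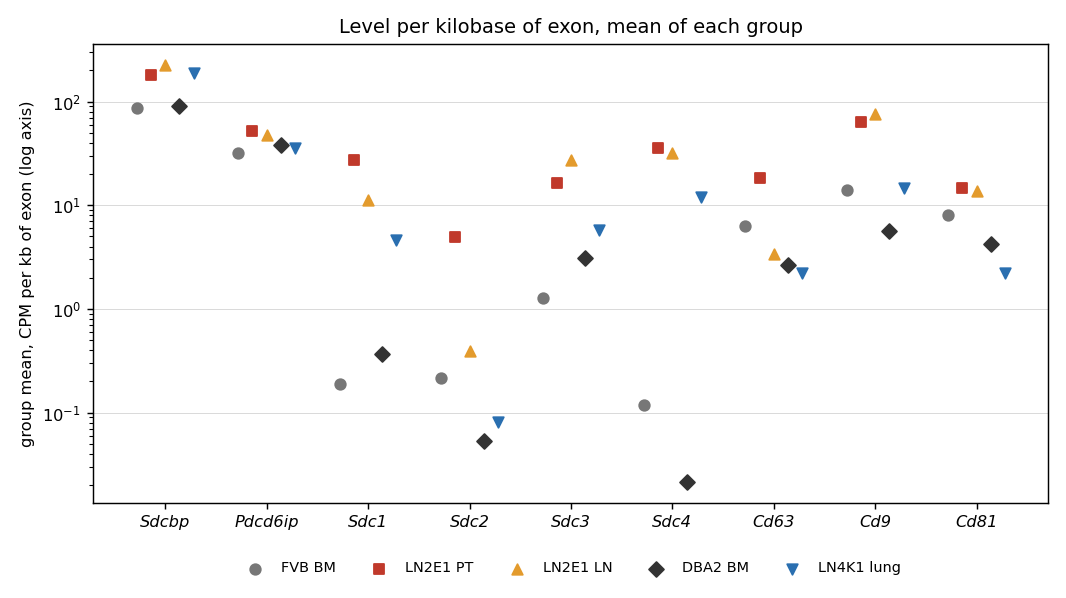
Mean level of each gene in each group as CPM per kb of exon on a log axis. Sdcbp lies highest in every group, while Sdc4 moves from the lowest place in both BM groups to 36.0, 32.2 and 11.9 CPM per kb in the TIM groups.

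The gene for syntenin, Sdcbp, lies on chromosome 4 of GRCm38 (bases 6365650 to 6408423, forward strand). Its 3 FVB BM libraries held 607, 646 and 534 CPM, and its 3 DBA2 BM libraries held 642, 630 and 616 CPM. The 5 LN2E1 PT libraries held 1159, 1259, 1455, 1229 and 1181 CPM, the 5 LN2E1 LN libraries 1684, 1568, 1141, 1748 and 1668 CPM, and the 5 LN4K1 lung libraries 1219, 1226, 1498, 1281 and 1237 CPM. Every TIM library thus lay above every BM library. Within the TIMs the 3 groups overlapped, and within BM the 2 strains overlapped. The log2 fold change over BM of the same strain was 1.06 (SE 0.11) in LN2E1 PT, 1.39 (SE 0.15) in LN2E1 LN and 0.96 (SE 0.11) in LN4K1 lung. LN2E1 LN replicate 3, at 1141 CPM, was the lowest of all 15 TIM libraries although its group mean of 1562 ± 244 CPM (SD, n = 5) was the highest.

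ALIX, encoded by Pdcd6ip on chromosome 9 (bases 113651744 to 113708259, reverse strand), varied least between groups. Group means were 222 ± 36.4 CPM in FVB BM (SD, n = 3), 265 ± 17.9 CPM in DBA2 BM (n = 3), 358 ± 19.1 CPM in LN2E1 PT (n = 5), 326 ± 39.01 CPM in LN2E1 LN (n = 5) and 247 ± 79.6 CPM in LN4K1 lung (n = 5). All LN2E1 TIM libraries, from 278 CPM upward, lay above the FVB BM libraries, which reached 260 CPM. In LN4K1 lung the values were 299, 318, 120, 277 and 222 CPM, and the group overlapped DBA2 BM. The log2 fold change over BM was 0.66 (SE 0.12), 0.55 (SE 0.15) and -0.17 (SE 0.27) in LN2E1 PT, LN2E1 LN and LN4K1 lung, and the last was 0.00239 without replicate 3, the library at 120 CPM.

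Sdc4, the gene for syndecan-4, a syndecan found at focal adhesions, lies on chromosome 2 (bases 164424247 to 164443887, reverse strand) and was nearly without reads in BM. The 3 FVB BM libraries held 2, 20 and 76 counts and the 3 DBA2 BM libraries 11, 2 and 3 counts. The LN2E1 PT libraries held 99.05, 94.7, 108, 80.5 and 75.6 CPM, the LN2E1 LN libraries 77.1, 85.8, 94.1, 69.2 and 84.3 CPM, and the LN4K1 lung libraries 37.5, 28.4, 19.8, 35.5 and 30.1 CPM. The lowest TIM library, at 1469 counts, stood above the highest BM library, at 76 counts. LN4K1 lung lay wholly below both LN2E1 groups, which overlapped. On the log2 scale, the difference from BM was 8.15 (SE 0.69) in LN2E1 PT, 8.03 (SE 0.76) in LN2E1 LN and 9.0003 (SE 0.52) in LN4K1 lung, and because of the few BM counts it moved with single BM libraries, between 7.68 and 9.59, between 7.51 and 9.45 and between 8.5996 and 10.05.

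The stretch before the RefSeq start of Sdc4 is printed because this gene had nearly no reads in BM and at least 19.8 CPM in every TIM library, beside that of Cd63, whose level differed between the tumor sites. Both are the 250 bases upstream of the RefSeq start in GRCm38.p6, read 5′ to 3′ on the gene's strand, at chr2:164443189-164443438 (reverse strand) and chr10:128909095-128909344 (forward strand). Neither overlaps an exon of GENCODE, whose longest models of both genes start further upstream. Capitals mark the letters of the motifs named after them.
Sdc4: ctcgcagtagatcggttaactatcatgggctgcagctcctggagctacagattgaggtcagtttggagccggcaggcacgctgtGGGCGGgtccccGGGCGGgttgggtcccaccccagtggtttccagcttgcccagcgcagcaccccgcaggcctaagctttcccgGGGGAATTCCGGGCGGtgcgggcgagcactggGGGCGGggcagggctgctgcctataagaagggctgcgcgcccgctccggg
Cd63: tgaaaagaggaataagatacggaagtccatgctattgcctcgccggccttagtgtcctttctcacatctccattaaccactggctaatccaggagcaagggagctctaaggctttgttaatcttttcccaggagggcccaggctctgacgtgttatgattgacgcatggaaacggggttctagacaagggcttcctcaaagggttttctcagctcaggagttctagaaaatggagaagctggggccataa
The letters GGGCGG (the SP1 box) were found 4 times before Sdc4, at 166, 154, 72 and 50 bases before the start, and 0 times before Cd63. The consensus known as kappa B matched once before Sdc4, as GGGGAATTCC at 82 bases before the start, directly in front of a GGGCGG; this motif was added after that sequence had been read. Both strands were searched. Of 32544 promoter windows of the same length, 33.0% held GGGCGG and 3.92% the kappa B consensus. The windows of 7 of the 9 genes were in the RefSeq table used; GGGCGG was in 5 of these 7 (Sdc1, Sdc3, Sdc4, Cd9, Cd81) and kappa B in Sdc4. TGANTCA (AP-1, 6.73% of windows) and TGACGTCA (CRE, 1.55%) were in 0 of the 7, and TTGCNNAA (C-EBP, 9.58%) was in Sdc1. G and C made up 68.0% of the Sdc4 stretch and 48.8% of the Cd63 stretch. These matches describe letters only.

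Sdc1 (chromosome 12, bases 8771323 to 8793715, forward strand) encodes syndecan-1, known from epithelia and plasma cells. FVB BM held 0.546, 0.948 and 0.670 CPM and DBA2 BM 1.21, 2.19 and 0.771 CPM. LN2E1 PT held 59.6, 76.3, 200.1, 84.2 and 94.6 CPM, LN2E1 LN 63.3, 38.9, 28.2, 32.1 and 51.2 CPM, and LN4K1 lung 18.9, 19.3, 8.10, 25.3 and 17.1 CPM. Every TIM library was above every BM library, and LN4K1 lung lay below both LN2E1 groups. The log2 fold change over BM was 7.14 (SE 0.54) in LN2E1 PT, 5.89 (SE 0.40) in LN2E1 LN and 3.59 (SE 0.47) in LN4K1 lung. Epithelial marker sums were likewise higher in every TIM library (at least 7.73 CPM) than in every BM library (at most 3.97 CPM). In LN2E1 LN, however, only 2 of the 8 epithelial genes averaged over 1 CPM. Cdh1 averaged 62.4 CPM there, while Krt18 averaged 0.205 CPM against 0.711 CPM in FVB BM. B and plasma cell sums overlapped between LN2E1 TIMs and FVB BM. Within the B and plasma cell list the B cell gene Cd79b averaged 34.1 CPM in FVB BM and 13.4 CPM in LN2E1 PT, whereas the plasma cell gene Mzb1 did not overlap, with at most 0.380 CPM in BM and at least 4.97 CPM in LN2E1 PT, 2.16 CPM in LN2E1 LN and 0.591 CPM in LN4K1 lung. The plasma cell gene Igj did overlap, with up to 6.28 CPM in FVB BM and as little as 1.01 CPM in LN2E1 PT and 0.503 CPM in LN2E1 LN. Its means in these groups were 4.03, 69.7 and 98.5 CPM. The library with the most Sdc1, LN2E1 PT replicate 3 at 200.1 CPM, held 267 CPM of epithelial and 25.0 CPM of B and plasma cell markers. The highest sums of both lists in that group, 784 and 348 CPM, were in replicate 5, with 94.6 CPM of Sdc1. Each of these 2 sums was mostly 1 gene, with 624 CPM of Sftpc and 312 CPM of Igj. The part of such cells in the Sdc1 level was not tested.

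Sdc3 (chromosome 4, bases 130792537 to 130826319, forward strand), a syndecan best known from nerve tissue and also found in macrophages, had its lowest level in FVB BM, with 6.60, 7.41 and 9.05 CPM, followed by DBA2 BM with 19.8, 16.4 and 19.8 CPM. LN4K1 lung held 28.4, 31.8, 27.5, 38.04 and 45.4 CPM. LN2E1 PT fell into a low and a high set, with 31.8 and 46.4 CPM in replicates 1 and 3 and 151, 121 and 144 CPM in replicates 2, 4 and 5. LN2E1 LN held 143, 189, 130, 203 and 149 CPM. The FVB BM, DBA2 BM and LN4K1 lung groups followed each other without overlap, and LN2E1 PT overlapped both LN4K1 lung and LN2E1 LN. Relative to BM, the fitted log2 fold change was 3.66 (SE 0.57) in LN2E1 PT, 4.403 (SE 0.23) in LN2E1 LN and 0.80 (SE 0.19) in LN4K1 lung. Of the exon bases of Sdc3, 7.73% overlap genes on the other strand (Gm12970 and Gm26716), and reads of the 2 strands were not separated.

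Sdc2 (chromosome 15, bases 32920723 to 33034935, forward strand) encodes syndecan-2, a syndecan of fibroblasts and other mesenchymal cells. Its levels were highest in LN2E1 PT, where the 5 libraries held 9.11, 29.0, 7.94, 23.4 and 18.4 CPM. LN2E1 LN held 0, 326, 202, 23 and 0 counts, LN4K1 lung 17, 0, 0, 71 and 46 counts, FVB BM 53, 78 and 99 counts and DBA2 BM 55, 0 and 0 counts. A count of 0 in these libraries allows up to 0.0371 CPM before TMM scaling. The lowest LN2E1 PT library, at 683 counts, lay above the highest library of any other group, at 326 counts. Fibroblast marker sums in the 5 LN2E1 PT libraries were 531, 1041, 365, 1112 and 691 CPM. Thus the 3 libraries with the most Sdc2 were the 3 with the most fibroblast RNA, and in LN2E1 LN the 2 libraries with the most Sdc2 held 87.1 and 28.4 CPM of these markers, while replicate 4, with 23 counts of Sdc2, held 69.6 CPM. The part of fibroblasts in the Sdc2 level was not tested. The log2 fold change over FVB BM was 4.50 (SE 0.52) in LN2E1 PT, and none is given for the other groups, whose libraries include counts of 0.

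Cd63 (chromosome 10, bases 128900989 to 128912822, forward strand) had a higher level in TIMs of the primary tumor than in those of either other site. LN2E1 PT held 44.7, 87.7, 40.3, 89.0 and 75.5 CPM, LN2E1 LN 11.8, 16.4, 16.9, 9.85 and 7.01 CPM and LN4K1 lung 5.96, 8.40, 3.82, 10.7 and 12.3 CPM. FVB BM, with 23.0, 18.4 and 28.2 CPM, lay between the 2 LN2E1 groups and overlapped neither. DBA2 BM, with 13.1, 9.19 and 7.22 CPM, overlapped LN4K1 lung and LN2E1 LN. The log2 fold change over BM was 1.52 (SE 0.30) in LN2E1 PT, -0.90 (SE 0.31) in LN2E1 LN and -0.34 (SE 0.37) in LN4K1 lung. Within LN2E1 PT the 5 libraries had the same order of Cd63 as of fibroblast marker sum, with replicate 4 highest and replicate 3 lowest.

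Cd9 (chromosome 6, bases 125460266 to 125494791, reverse strand), a tetraspanin of platelets and many leukocytes, held 28.3, 24.4 and 32.4 CPM in FVB BM and 14.2, 10.2 and 10.2 CPM in DBA2 BM. It held 108, 125, 129, 141 and 142 CPM in LN2E1 PT, 111, 198, 178, 132 and 154 CPM in LN2E1 LN and 23.9, 28.2, 23.6, 37.3 and 37.4 CPM in LN4K1 lung. Both LN2E1 groups lay above every other library, and LN4K1 lung, although above its own DBA2 BM, overlapped FVB BM. Over BM of the same strain, the log2 fold change was 2.16 (SE 0.14) in LN2E1 PT, 2.44 (SE 0.22) in LN2E1 LN and 1.30 (SE 0.22) in LN4K1 lung. Of the exon bases of Cd9, 10.7% overlap Gm26728 on the other strand. Symbols of a processed copy were also found for Cd63 (Cd63-ps) and for Cd9 (Cd9-ps), so reads could be split between near-identical sequences.

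Cd81 (chromosome 7, bases 143052739 to 143067934, forward strand), a tetraspanin partner of B cell and integrin receptors, differed in direction between the models. FVB BM held 22.6, 23.7 and 23.7 CPM. LN2E1 PT held 46.0, 50.8, 21.03, 44.7 and 48.4 CPM and LN2E1 LN 32.9, 45.8, 39.6, 29.4 and 50.9 CPM, so that 9 of these 10 libraries lay above FVB BM and PT replicate 3 below it. DBA2 BM held 13.2, 12.5 and 10.7 CPM and LN4K1 lung 5.79, 5.98, 3.63, 8.49 and 7.97 CPM, all below DBA2 BM. The log2 fold change over BM was 0.83 (SE 0.25) in LN2E1 PT, 0.77 (SE 0.20) in LN2E1 LN and -1.004 (SE 0.26) in LN4K1 lung.

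**Figure D2:**
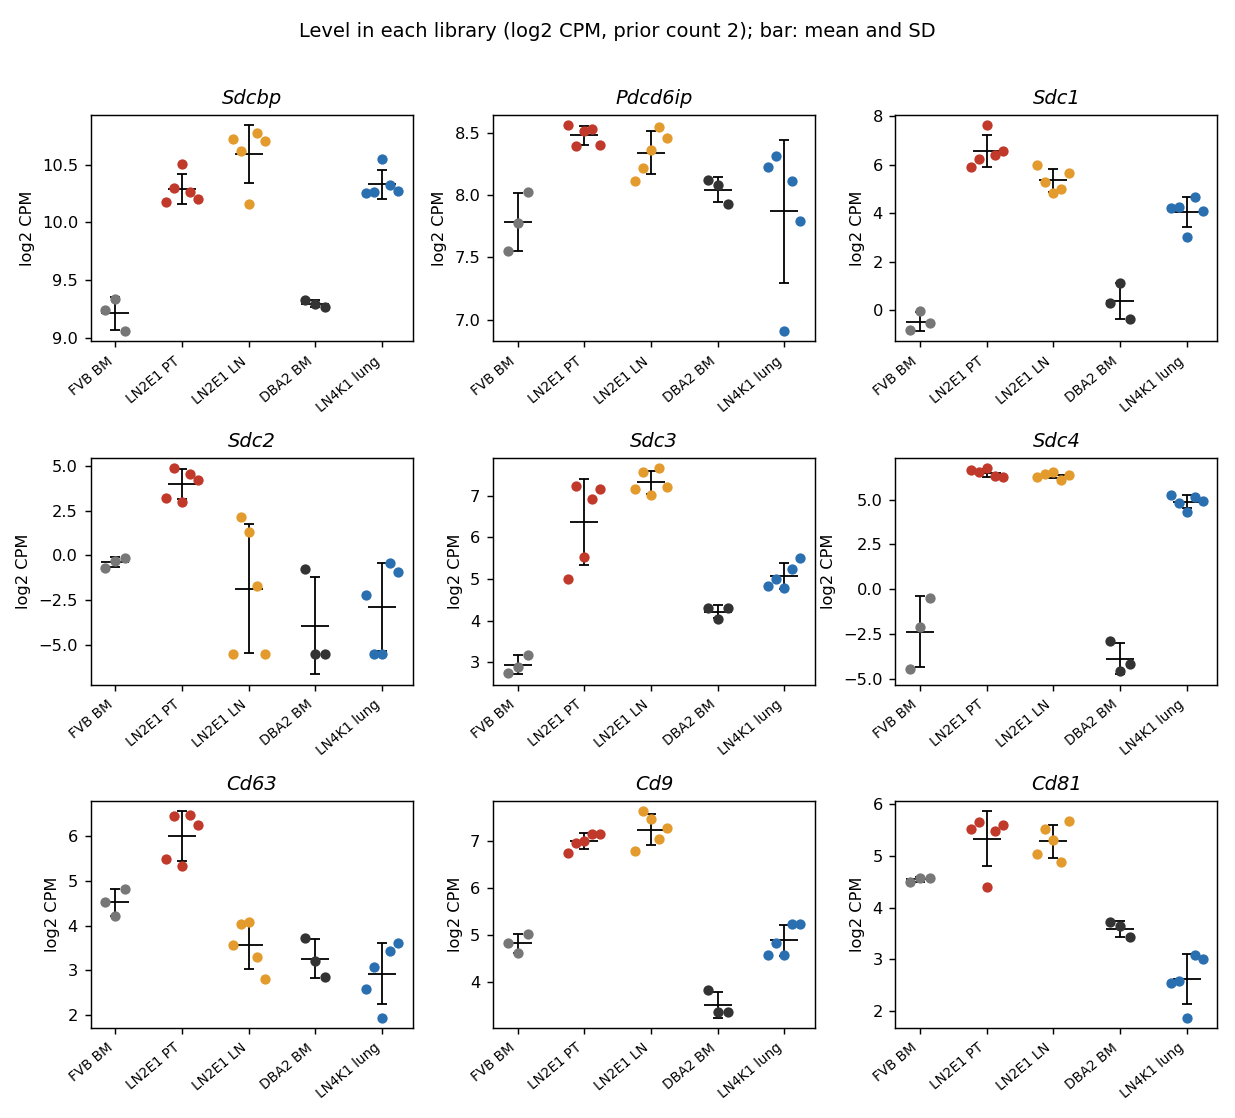
Level of each gene in each of the 21 libraries as log2 CPM with a prior count of 2; bars give the mean and SD of each group. Sdcbp, Sdc1, Sdc3, Sdc4 and Cd9 lie higher in every TIM library than in every BM library of the same strain. Cd63 in LN2E1 LN (7.01 to 16.9 CPM) lies below FVB BM (18.4 to 28.2 CPM).

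The thresholds of the study's methods were an adjusted p below 0.0001 together with a log2 change of more than 1 in size. Past both lay 5 of the 9 genes in LN2E1 PT (Sdcbp, Sdc1, Sdc2, Sdc4, Cd9), 5 in LN2E1 LN (Sdcbp, Sdc1, Sdc3, Sdc4, Cd9) and 1 in LN4K1 lung (Sdc4), where 12.9%, 5.71% and 2.97% of all genes tested did. Without overlap between TIMs and BM were 8, 8 and 6 of the 9, where 58.1%, 42.9% and 34.8% of all genes did not overlap. These comparisons were among those that chose the set, so the counts describe where the genes stand against the thresholds and are no test of them, and nothing is read from them. LN2E1 PT and LN2E1 LN were compared with the same 3 FVB BM libraries. Without LN4K1 lung replicate 3 the count in LN4K1 lung went from 1 to 2. Leaving out any of the 3 FVB BM libraries took the count in LN2E1 PT from 5 to 2, and in LN2E1 LN, where it was 5, leaving out FVB BM replicate 1, 2 or 3 left 3, 2 and 3 and leaving out LN replicate 1 left 4.

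**Figure D3:**
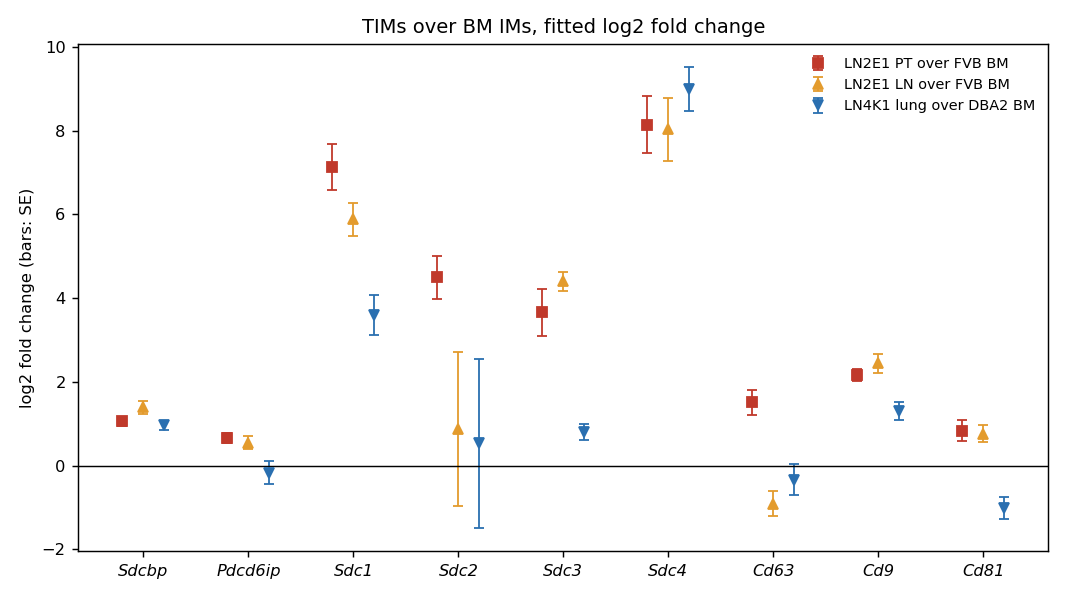
Fitted log2 fold change of TIMs over BM IMs of the same strain, with SE; above 0 means higher in TIMs. Sdc4 has the highest value in each of the 3 comparisons (8.15, 8.03 and 9.0003), and Cd63 and Cd81 differ in sign between comparisons. The bars of Sdc2 in LN2E1 LN and LN4K1 lung rest on libraries with counts of 0.

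The comparison of TIMs from lymph node metastases with those from primary tumors asked whether the site within 1 model went with a change in these genes. Cd63 fell by 2.44 on the log2 scale in LN2E1 LN, from 67.4 ± 23.4 CPM to 12.4 ± 4.24 CPM (SD, n = 5 each), which is 5.41-fold lower, with SE 0.30 and an adjusted p of 0.000854 (edgeR). Sdc1 fell by 1.26, from 103 ± 55.8 CPM to 42.7 ± 14.5 CPM, with SE 0.33 and an adjusted p of 0.0312. The other 7 genes did not pass an adjusted p of 0.05, where 11.7% of all genes did. The 5 lymph node libraries lay wholly below the 5 primary tumor libraries for Cd63 and Sdc2, 2 of the 9 genes, where 14.4% of all genes did not overlap in either direction. The Cd63 call held when any 1 library was left out, with the log2 change between -2.58 and -2.29. The Sdc1 call was lost in 5 of 10 such fits (without PT replicate 4 or 5 or LN replicate 2, 3 or 4) with an adjusted p of up to 0.0643, and also with the replicate number as a block (adjusted p 0.125). Without PT replicate 3, the library with the most Sdc1, the log2 change was -0.87 with an adjusted p of 0.0463.

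Fibroblast marker sums went from between 365 and 1112 CPM in LN2E1 PT to between 0.836 and 87.1 CPM in LN2E1 LN. Epithelial sums went from between 212 and 784 CPM to between 10.0 and 141 CPM, although their member Cdh1 averaged 52.5 and 62.4 CPM. Dcn, a fibroblast proteoglycan, averaged 92.7 CPM and 6.24 CPM. Endothelial sums had the opposite direction, with a median of 63.2 CPM in LN2E1 PT and 92.2 CPM in LN2E1 LN, as had B and plasma cell sums, with medians of 26.8 and 86.2 CPM, both with overlap between the groups. LN2E1 LN replicate 1, with 0.836 CPM of fibroblast markers, held 11.8 CPM of Cd63, within the range of its group (7.01 to 16.9 CPM). Its 63.3 CPM of Sdc1 was the highest of that group. The part of these cells in the calls of Cd63 and Sdc1 was not tested.

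Sdcbp had a log2 difference of 0.32 between LN and PT (95% interval 0.09 to 0.56, adjusted p 0.108), and this passed only when LN replicate 3 was left out, at 0.41 with an adjusted p of 0.0102. For Sdc4 the difference was -0.15 (interval -0.38 to 0.09, adjusted p 0.486) and for Pdcd6ip -0.12 (interval -0.30 to 0.06, adjusted p 0.449). Cd9 had 0.27 (interval -0.02 to 0.57, adjusted p 0.284) and Cd81 -0.08 (interval -0.53 to 0.38, adjusted p 0.875). Sdc3 had 0.73 (interval -0.02 to 1.48, adjusted p 0.26), with the spread among primary tumor libraries given above. Sdc2, at -3.65 (SE 1.28, adjusted p 0.0929), did not pass even though the ranges did not overlap. A value that missed the threshold does not show that the groups were alike.

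**Figure D4:**
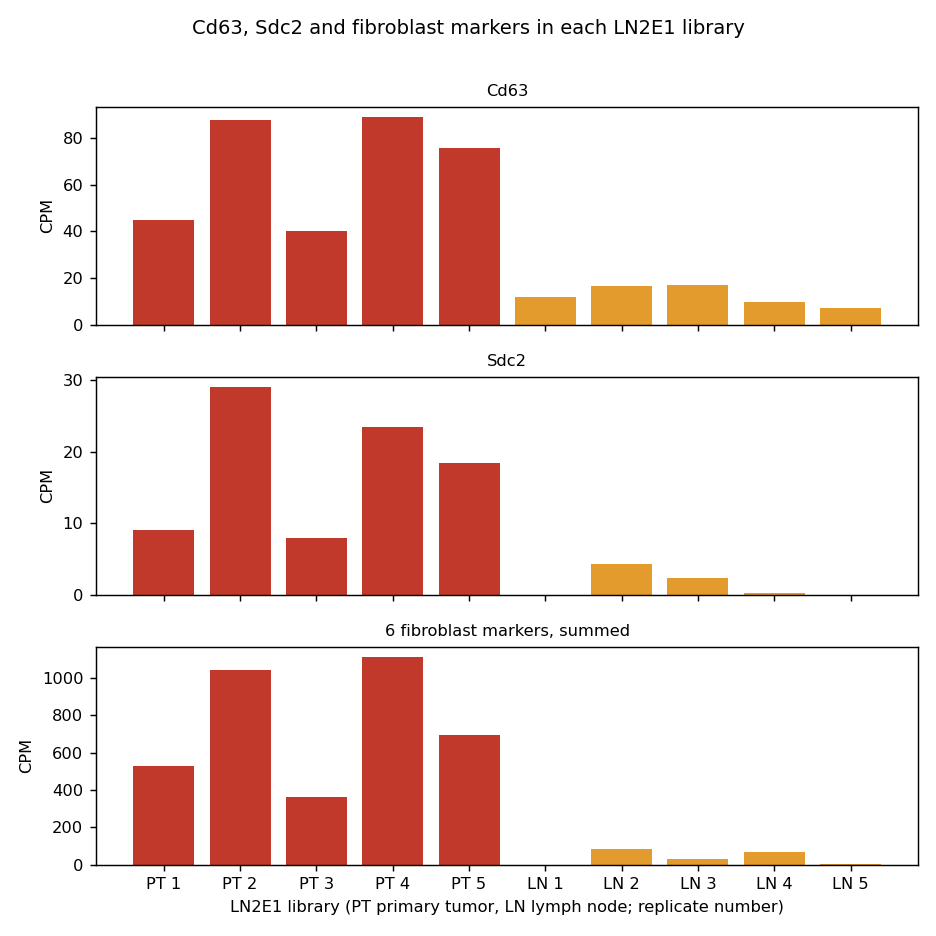
Bars give CPM of Cd63, CPM of Sdc2 and the summed CPM of 6 fibroblast markers in each of the 5 primary tumor (PT) and 5 lymph node (LN) libraries of the LN2E1 model. All 3 measures are highest in PT replicates 2, 4 and 5. In LN libraries Cd63 lies between 7.01 and 16.9 CPM and the fibroblast sums between 0.836 and 87.1 CPM.

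**Figure D5:**
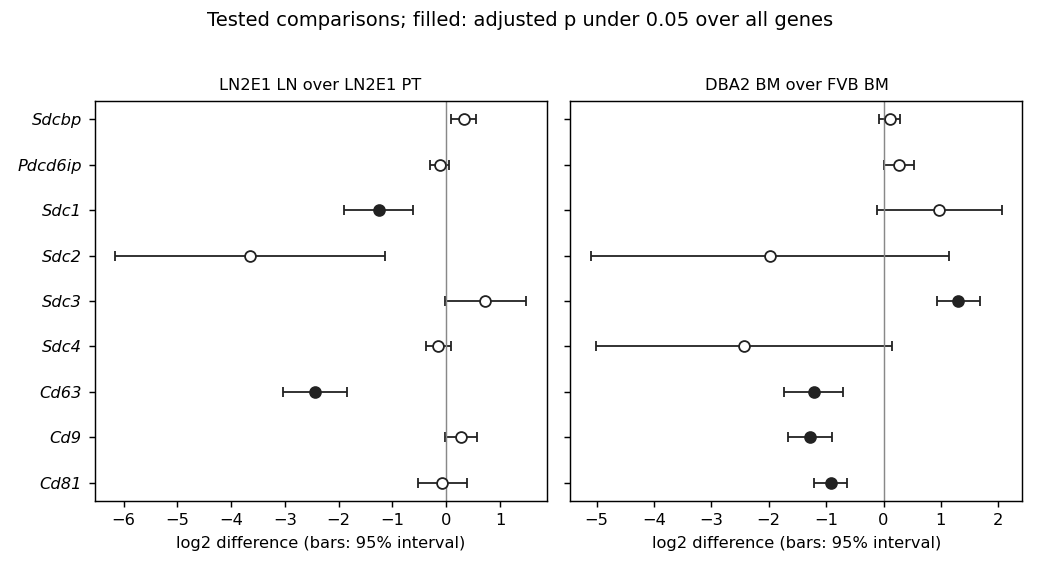
Log2 difference of each gene in the 2 tested comparisons, with 95% intervals from the SE; filled points had an adjusted p under 0.05 over all genes tested. Left, LN2E1 LN over LN2E1 PT, Cd63 (-2.44) and Sdc1 (-1.26) are filled; right, DBA2 BM over FVB BM, Sdc3 (1.30) is filled above 0 and Cd63, Cd9 and Cd81 below 0.

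DBA2 and FVB BM IMs came from mice without a tumor, and their comparison gives the baseline of each strain. The tetraspanins were lower in DBA2. Cd9 fell by 1.28 on the log2 scale, from 28.4 ± 3.999 CPM in FVB to 11.5 ± 2.33 CPM in DBA2 (SD, n = 3 each, SE 0.20, adjusted p 0.00401 in edgeR). Cd63 fell by 1.22, from 23.2 ± 4.90 CPM to 9.84 ± 3.00 CPM (SE 0.26, adjusted p 0.0154), and Cd81 fell by 0.92, from 23.3 ± 0.672 CPM to 12.1 ± 1.28 CPM (SE 0.15, adjusted p 0.00474). Sdc3 rose by 1.30, from 7.69 ± 1.25 CPM to 18.7 ± 1.99 CPM (SE 0.19, adjusted p 0.00324). Thus 4 of the 9 genes passed, where 21.1% of all genes did. FVB and DBA2 libraries did not overlap for 5 of the 9 genes, where 42% of all genes did not overlap. Sdcbp (0.10, interval -0.07 to 0.28, adjusted p 0.436) and Pdcd6ip (0.27, interval 0.0043 to 0.54, adjusted p 0.187) did not pass, nor did Sdc1 (0.97, SE 0.56, adjusted p 0.243), Sdc2 (adjusted p 0.401) and Sdc4 (adjusted p 0.219), the last 2 on few counts. The Cd63 call was lost without DBA2 replicate 2 or 3 (adjusted p 0.0574 and 0.0555) and with all 5 groups in one fit (adjusted p 0.0534). Platelet marker sums lay between 26.9 and 149 CPM in FVB and, with some overlap, between 0.655 and 45.2 CPM in DBA2, with Pf4 at 28.5 and 1.85 CPM on average. Sums of mature neutrophil, T and NK cell, B and plasma cell and epithelial markers were lower in DBA2 without overlap, and those of endothelial and dendritic cell markers higher. Mature neutrophil markers lay between 2001 and 2483 CPM in FVB and between 1005 and 1320 CPM in DBA2, and T and NK cell markers between 22.7 and 25.3 CPM and between 3.23 and 6.93 CPM. Members of these lists disagreed. On average S100a8 (725 and 259 CPM), S100a9 and Mmp8 were lower in DBA2, while Csf3r (272 and 351 CPM), Retnlg and Cxcr2 were higher. Nkg7 averaged 22.2 and 4.91 CPM in the T and NK cell list. In the endothelial list Pecam1 (4.75 and 11.0 CPM) and Tie1 were higher in DBA2, while Vwf (2.67 and 1.54 CPM), Kdr, Cdh5 and Cldn5 were lower. The part of these cells in the 4 differences between strains was not tested.

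The 2 tumor models were set against each other through the difference of their changes, that is, LN2E1 PT over FVB BM minus LN4K1 lung over DBA2 BM. This is built from comparisons that entered the choice of the genes, so its values are a description. Sdc1 differed by 3.56 on the log2 scale (SE 0.62), from changes of 7.14 and 3.59. Sdc3 differed by 2.88 (SE 0.56), from 3.66 and 0.80. Cd63 differed by 1.87 (SE 0.50), from 1.52 and -0.34, and Cd81 by 1.85 (SE 0.38), from 0.83 and -1.004. Cd9 differed by 0.88 (SE 0.25), from 2.16 and 1.30. Each of these 5 changes was thus larger or more positive in the LN2E1 model. Without LN4K1 lung replicate 3 the 5 differences were 3.37, 2.81, 1.69, 1.70 and 0.80.

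For Sdcbp the difference between the models was 0.12 (SE 0.14), from changes of 1.06 and 0.96. Pdcd6ip had 0.85 (SE 0.32), and 0.67 without LN4K1 lung replicate 3. Sdc4 had -0.83 (SE 0.89) and turned to 0.61 without FVB BM replicate 3, the BM library with the most Sdc4. Sdc2 had 3.97 (SE 1.69) and turned to -3.20 without DBA2 BM replicate 1, the one DBA2 library that held Sdc2 reads. Past an adjusted p of 0.05 were 5 of the 9 genes, where 26.5% of all genes were, and nothing is read from this count. Sums of fibroblast, epithelial and endothelial markers were also higher in LN2E1 PT than in LN4K1 lung. Within these lists, however, Krt8 averaged 12.6 and 22.5 CPM, Krt18 10.6 and 29.6 CPM and Tie1 0.994 and 1.66 CPM. The part of these cells was not tested.

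Other genes of the pathway were followed in 6 lists of 99 genes. In the TIM comparisons, where the thresholds for a call were the same as above, 11 of 95 genes tested were called in LN2E1 PT (10 higher, 1 lower), 7 of 88 in LN2E1 LN (all higher) and 3 of 90 in LN4K1 lung (2 higher, 1 lower), that is 11.6%, 7.95% and 3.33% against 12.9%, 5.71% and 2.97% of all genes. An adjusted p under 0.05 alone was passed by 56, 35 and 25 list genes, that is 58.9%, 39.8% and 27.8%, against 61.9%, 37.4% and 24.9% of all genes. Between LN and PT, between the strains and in the difference between models, 17 of 93, 19 of 87 and 28 of 96 list genes passed an adjusted p of 0.05, that is 18.3%, 21.8% and 29.2% against 11.7%, 21.1% and 26.5%. Median log2 changes below are of the list, beside those of all genes tested.

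The first list held the other genes of the syntenin and ALIX route and of ESCRT, among them ARF6 and PLD2, which control the budding of syntenin vesicles. Of 21 genes tested, 0 were called in each of the 3 TIM comparisons by edgeR, with 12, 5 and 6 at an unadjusted p under 0.05 and 1, 3 and 1 called by DESeq2. The list medians were 0.05, 0.12 and 0.16, and those of all genes 0.08, -0.04 and 0.03. Pld2 had log2 changes of 2.10 (SE 0.30, adjusted p 0.000254), 1.86 (SE 0.36, adjusted p 0.00279) and 0.37 (SE 0.31, adjusted p 0.438) in LN2E1 PT, LN2E1 LN and LN4K1 lung. Arf6 had -1.75, -1.14 and 1.20, and its FVB BM level rested on replicate 1, with 231 CPM against at most 32.8 CPM in the other FVB libraries. Without it the first 2 changes of Arf6 became 0.15 and 0.74. The ESCRT-I gene Tsg101 had -0.22, -0.08 and 0.16, with no adjusted p under 0.0849. Sdcbp2, the gene for syntenin-2, stayed at or under 3.55 CPM in all libraries, with changes of 0.13, 1.70 and 5.01. Of the list, 1 of 21 passed between LN and PT (Hgs, an ESCRT-0 gene, at -0.32), 2 of 21 between the strains (Pdcd6 at -0.48 and Vps4a at -0.34) and 9 of 22 in the difference between models (2 higher, 7 lower). The latter included Pld2 at 1.75, Vps37b at 0.80, Arf6 at -2.93 and Sdcbp2 at -4.85. Without FVB BM replicate 1 the value of Arf6 was -1.13.

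The second list held genes of vesicle docking and release. By edgeR 0 were called among 14, 14 and 13 tested in the TIM comparisons, with 8, 7 and 8 at an unadjusted p under 0.05 and 1 in each by DESeq2. The list medians were 0.38, 0.51 and 0.43. Rab27a, a GTPase of exosome release, had -0.11, -0.59 and -0.80, with no adjusted p under 0.109. Smpd3, the gene for neutral sphingomyelinase, had 1.85, -1.26 and 4.01 at group means of at most 2.53 CPM. Between LN and PT 3 of 13 passed, with the actin-binding Cttn at -3.10, Rala at 0.57 and Rab11a at 0.38. Between the strains 4 of 14 passed. Rab35, a GTPase of membrane recycling, stood out, with 9.51 CPM at most in FVB BM, at least 68.7 CPM in DBA2 BM and 2.98 on the log2 scale. Its levels in TIMs followed the strain, at most 9.22 CPM in the LN2E1 groups and at least 79.2 CPM in LN4K1 lung. Ykt6 rose by 0.82 and Rab27a by 0.68, and Sytl4 was at least 20.0-fold lower against the floor of 3 counts per library. In the difference between models 3 of 14 passed (Ykt6 at 1.19, Unc13d at 1.10 and Rab35 at -0.93).

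The third list held other tetraspanins and their partners. Called were 3 of 19 in LN2E1 PT, 3 of 17 in LN2E1 LN and 1 of 18 in LN4K1 lung, with list medians of 0.44, -0.15 and 0.66. Tspan13 was called in all 3, at 2.56 (SE 0.10), 3.26 (SE 0.14) and 2.56 (SE 0.15), from 60.2 CPM in FVB BM and 33.3 CPM in DBA2 BM to 361, 576 and 207 CPM on average. Cd53, a tetraspanin of leukocytes, had 1.003, 1.42 and 0.995, of which the first 2 were called. Cd82 had 1.64 (adjusted p 0.00013), 2.47 and 0.28, with a call in LN2E1 LN. The leukocyte tetraspanin Cd37 had -0.14, -0.15 and -0.000114, with no call, and Tspan32 was called lower in LN2E1 PT, at -2.22. Between LN and PT 6 of 18 passed. Cd82 (0.82) and Tspan13 (0.68) were higher in LN, while Tspan15 was at least 34.3-fold and Tspan8 at least 23.3-fold lower, both at under 3 CPM in every library of that comparison. Between the strains 6 of 18 passed, with Igsf8, a partner of CD9 and CD81, at 1.23, Cd37 at 0.48, Tspan5 at -1.33 and Tspan13 at -0.83. In the difference between models 3 of 19 passed (Cd82 at 1.38, Cd151 at -1.54 and Tspan15, at 1.27 CPM in LN2E1 PT and 5.93 CPM in LN4K1 lung on average).

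Heparan sulfate chains are made by the enzymes of the fourth list. Called were 2 of 17 in LN2E1 PT, Extl3 at 1.60 and Hs6st2, at least 65.2-fold higher. By edgeR 0 of 16 were called in LN2E1 LN and in LN4K1 lung, with 5 and 6 at an unadjusted p under 0.05 and 2 in each by DESeq2. List medians were 0.51, 0.40 and -0.05. Ext1, the polymerase that extends the chain, had -0.18, 0.73 and 0.84. Between LN and PT 1 of 17 passed, Hs6st2, at least 53.9-fold lower. Between the strains 4 of 14 passed (among them Hs6st1 at 1.10, Ndst2 at 0.70 and Xylt1 at -2.35), and in the difference between models 3 of 17 (Extl3 at 1.40, B3gat3 at 0.69 and Hs3st3b1, which held 0 counts in all DBA2 BM libraries and 7.97 CPM on average in LN4K1 lung).

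The fifth list held other proteoglycans that carry heparan sulfate. Called were 3 of 11 in LN2E1 PT, 2 of 8 in LN2E1 LN and 2 of 9 in LN4K1 lung, with list medians of 2.46, 0.99 and -0.27. Srgn, the proteoglycan of secretory granules, rose by 2.46 (SE 0.16) and 2.93 (SE 0.16) in the LN2E1 groups, from 302 CPM in FVB BM to 1680 and 2292 CPM. Cd44, a hyaluronan receptor of which some forms carry heparan sulfate, rose by 1.62 in LN2E1 LN and 1.22 in LN4K1 lung. It was also called higher in LN2E1 PT, from 254 CPM in FVB BM to 806 CPM on average. Gpc4, a glypican, was at least 165-fold higher in LN2E1 PT than in FVB BM, at 5.04 CPM on average, and Gpc1 fell by 2.86 in LN4K1 lung. Between LN and PT 3 of 11 passed, with Srgn at 0.46, Gpc4 at least 137-fold lower and Gpc6 at least 34.7-fold lower. Between the strains 1 of 8 passed (Agrn at 1.33), and in the difference between models 5 of 11, all higher, among them Tgfbr3 at 4.07.

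The sixth list held enzymes that cut syndecans or their chains and proteins that bind their tails. Called were 3 of 13 in LN2E1 PT and 2 of 12 in LN2E1 LN, with list medians of 1.16, 0.61 and 0.29. In LN4K1 lung 0 of 13 were called by edgeR, with 7 at an unadjusted p under 0.05 and 1 by DESeq2. Mmp14, a membrane protease that sheds syndecans, rose from 0.286 CPM in FVB BM to 139 CPM in LN2E1 PT (log2 8.84, SE 0.70) and 65.8 CPM in LN2E1 LN (log2 7.80, SE 0.76). Adam17, also a sheddase, rose by 1.51 (SE 0.11) and 1.67 (SE 0.14). The heparanase gene Hpse had 0.06, 0.61 and -0.31. Between LN and PT 3 of 13 passed, with Hpse at 0.55, Mmp14 at -1.07 and Sulf2 at -0.46. Between the strains 2 of 12 passed, with Adam17 at 0.62 and Timp3, an inhibitor of sheddases, at least 43.3-fold lower in DBA2, where it held 0 counts. In the difference between models 5 of 13 passed, with Adam17 at 1.24 and Mmp9 at 5.42 among those that were higher. Mmp9 in LN2E1 PT ranged from 5.37 to 68.5 CPM.

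Genes whose log2 CPM followed that of Sdcbp most closely over the 21 libraries, out of the 8016 genes averaging more than 3 in log2 CPM, were Msr1 (r = 0.978), Ms4a6b (0.977), Fbxl5 (0.973) and Ctss (0.973). For Sdc4 they were Tgm2 (r = 0.986), F11r (0.980), Cd244 (0.980), Clec4n (0.979) and Cd44 (0.976). These are Pearson correlations given as a description, and the points share the split between TIM and BM libraries. Ctss, which encodes the lysosomal protease cathepsin S, averaged 1527 and 1262 CPM in FVB and DBA2 BM and 3513, 5310 and 4106 CPM in LN2E1 PT, LN2E1 LN and LN4K1 lung. Tgm2, a transglutaminase, averaged 3.12 and 0.828 CPM in BM and 1573, 1109 and 301.3 CPM in TIMs, the same order of groups as Sdc4.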

How the data were processed

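Bulk RNA-seq of 21 libraries was analysed. The authors deposited whole-number read counts per gene, made by trimming with BBDuk, alignment with BBMap to the mm10 genome, sorting with SAMtools 1.8 and counting with featureCounts 1.5.2; counting settings are not given in the sources used here, and the library kit does not keep strand. Groups were taken from the labels. Genes were kept by filterByExpr of edgeR 4.0.16 (minimum count 10, minimum total 15) in R 4.3.3, scaled by TMM and tested with the quasi-likelihood test of edgeR on the groups compared, with Benjamini-Hochberg adjustment over all genes tested. For TIMs against BM IMs the thresholds of the study's methods were used (adjusted p below 0.0001, log2 change of more than 1 in size), and the other comparisons were called at an adjusted p under 0.05. The 95% intervals are the estimate with 1.96 SE on each side. CPM were divided by union exon length for levels between genes. DESeq2 1.42.0, other filters and scalings, a block by replicate number, and fits without each library in turn were run as alternatives. No 2 libraries held identical counts. The 9 genes, the 6 pathway lists and the 12 marker lists (73 genes, 2 of them matched by an older symbol) were chosen with earlier results of these data known. From each pathway list, the text names in each comparison up to 2 called genes per direction with the largest absolute change, and 11 further genes (Sdcbp2, Arf6, Pld2, Tsg101, Rab27a, Smpd3, Hpse, Ext1, Cd37, Cd53, Cd82) whatever their values. The call of Cd44 in LN2E1 PT lies outside this rule and is given as well. For Sdcbp and for Sdc4 the rule also took the 5 genes with the highest correlation of log2 CPM, of which 1 is not reported here. A gene with at most 3 counts in every library of one group is given as a lower bound of its fold. The fits were tested on simulated data. Promoter stretches are those of RefSeq in GRCm38.p6, and gene positions those of GENCODE in GRCm38.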

Additional observations from a re-analysis of the deposited data

Results flagged for a closer look

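Of 27 sets of 5 libraries checked (9 genes in 3 TIM groups), 3 held a library beyond Dixon's 95% critical value, which chance alone passes in about 1 of 20 sets. Sdcbp was 1498 CPM in LN4K1 lung replicate 3, with a gap of 0.778 of the group's range. Sdc1 was 200.1 CPM (gap 0.751) and Cd81 21.03 CPM (gap 0.795) in LN2E1 PT replicate 3, the primary tumor library with the lowest sum of fibroblast markers, 365 CPM. The change over BM differed between the LN2E1 and LN4K1 models, by the fitted difference of the 2 changes, by 3.56 on the log2 scale for Sdc1, 2.88 for Sdc3, 1.87 for Cd63, 0.88 for Cd9 and 1.85 for Cd81. The genes were chosen with those changes in view, so no p-value is given.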

How the results depend on the processing

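The 9 genes and the pathway lists were refitted under 7 other settings (6 for the difference between models, where shrunken DESeq2 fold changes were not run) and without each library in turn. Of the 9 genes called in the comparisons of TIMs with BM IMs, the count in LN2E1 PT was 2 to 6 without 1 library, in LN2E1 LN 2 to 4 and in LN4K1 lung 1 to 2; in LN4K1 lung it was 0 with 10 counts in every library, which leaves Sdc4 out, 4 with all 5 groups in one fit and 3 with DESeq2, shrunken or not. Called list genes went to 26 in LN2E1 PT, 17 in LN2E1 LN and 13 in LN4K1 lung with DESeq2, to 26, 17 and 11 with shrunken fold changes, and to 14 in LN2E1 LN and 8 in LN4K1 lung with all 5 groups in one fit, which left 11 in the comparison of strains; the cause was not tested. Without 1 library the called list genes were 8 to 16, 3 to 8 and 1 to 8 in the 3 TIM comparisons, 13 to 24 between LN and PT, 7 to 41 between the strains and 15 to 35 in the difference between models, where the counts among the 9 genes were 1 to 2, 3 to 5 and 4 to 6. Replicate numbers did not pair the LN2E1 PT libraries with the LN2E1 LN libraries: the correlation of deviations between same-numbered libraries of these groups was between -0.209 and 0.0988. In PT and LN4K1 lung, 4 of 5 libraries matched their own number best, as did 3 of 3 in FVB BM and LN. With the replicate block, 0 of the 9 genes and 0 list genes were called in each comparison of TIMs with BM IMs, 1 of the 9 and 8 list genes between LN and PT, and 18 list genes in the difference between models. Some values changed sign. The difference between models ran from -3.20 to 4.69 for Sdc2 and from -1.89 to 0.61 for Sdc4 without 1 library, and Cd81 between LN and PT from -0.25 to 0.0138. Arf6 turned without FVB BM replicate 1, which held 231 CPM. In LN2E1 PT, Sdcbp2 was -0.0673 with the replicate block and -0.14 to 0.48 without 1 library, Arf6 -2.24 to 0.15, Ext1 -0.37 to 0.30 and Rab27a -0.16 to 0.0644; in LN2E1 LN, Arf6 was -1.63 to 0.74 and Tsg101 -0.17 to 0.0178. Cd37 in LN4K1 lung was 0.0111 with DESeq2 size factors, 0.0112 with DESeq2, 0.0110 with shrunken fold changes, 0.000903 with no low-count filter, 0.0608 with all 5 groups in one fit and -0.0878 to 0.11 without 1 library. Among the 9 genes, Cd63 between the strains lost its call with all 5 groups in one fit. For the difference between models, given as a description, Pdcd6ip was 0.85 in the main fit. It was 0.899 with DESeq2 size factors, 0.867 with 10 counts in every library and 0.899 with DESeq2. Depth limits Sdc4 in BM and Sdc2 outside LN2E1 PT, where libraries held from 0 to 326 counts.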
